A study of Mus musculus with 8 samples.

Results

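Accessible chromatin was examined at 10 genes that control the passage of the cell cycle from G1 into S phase: the D-type cyclins Ccnd1, Ccnd2 and Ccnd3, the E-type cyclin Ccne1, the kinases Cdk4 and Cdk6, the kinase inhibitors Cdkn1a, Cdkn1b and Cdkn1c, and the retinoblastoma gene Rb1. A region belonged to a gene when that gene's body was the nearest protein-coding one, with the region inside it or at most 50 kb away. This gave 45 of the 57417 consensus regions of the series, at 9 of the 10 genes. Cdk6 held 12 regions, Ccnd1 and Ccne1 6 each, Ccnd3, Cdkn1a, Cdkn1b and Rb1 4 each, Ccnd2 3 and Cdk4 2. Cdkn1c held none: the region closest to it lay 8973 bp away and nearer to Slc22a18, and the 5 regions within 50 kb of it all lay nearer to another gene. A further region lies inside both Rb1 and Lpar6, a gene nested in it, and was counted for Lpar6.

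The measurements are ATAC-seq counts, in which a transposase cuts and tags open DNA, from PB3, a mouse breast cancer cell line that the labels give as Er-/Pr-/Her2-. PB3-Parental was untreated, and PB3-ERI-R, PB3-PAC-R and PB3-VIN-R were derived from PB3 as clones resistant to eribulin (spelled Erubilin in the labels), paclitaxel and vinorelbine, drugs that act on microtubules. Each drug was given at 300, 500 and 800 nM, and the labels do not say whether a resistant line is 1 clone or whether drug was present at harvest. Each line had 2 libraries. The labels do not say that these came from separate cultures, so a p-value reflects nothing but how far these libraries spread, which may be technical. Replicates are given as mean ± SD with n = 2.

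D-type cyclins bind Cdk4 and Cdk6, and these complexes begin the phosphorylation of the Rb1 protein, which holds E2F transcription factors in check. Cyclin E with its partner Cdk2 carries that phosphorylation further, after which E2F targets are transcribed and S phase begins. The products of Cdkn1a (p21), Cdkn1b (p27) and Cdkn1c (p57) bind cyclin and kinase complexes and restrain them, and Cdkn1a is a classical target of p53. In breast cancer Ccnd1 is a well known oncogene, and inhibitors of Cdk4 and Cdk6 are in clinical use. Accessibility at a gene is not its expression, which was not measured here.

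Promoter sequences of 6 of the 10 genes were held in the RefSeq table of GRCm38.p6, and Ccnd1, Ccnd2, Cdkn1c and Rb1 were not matched. Those shown are the 250 bases before each annotated start at the promoters on which the later values turn: the starts of Ccnd3, of which the regions at both are compared, the starts of Cdk4 and Cdkn1b, and the starts of Cdk6 and Cdkn1a that no region covers. All lie on the plus strand. Capitals mark matches, on either strand, to the E2F letters TTTNNCGC, the Sp1 letters GGGCGG, the CCAAT box CCAAT, the E-box CACGTG and the p53 half-site. The AP-1 letters TGANTCA were also searched and had no match in these windows.
Ccnd3, upstream start, chr17:47504801-47505050: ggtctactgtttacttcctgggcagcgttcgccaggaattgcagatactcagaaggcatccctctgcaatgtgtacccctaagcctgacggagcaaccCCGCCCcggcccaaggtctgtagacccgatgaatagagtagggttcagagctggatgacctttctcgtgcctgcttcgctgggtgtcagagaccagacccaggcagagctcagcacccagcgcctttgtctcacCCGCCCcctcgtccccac
Ccnd3, downstream start, chr17:47593217-47593466: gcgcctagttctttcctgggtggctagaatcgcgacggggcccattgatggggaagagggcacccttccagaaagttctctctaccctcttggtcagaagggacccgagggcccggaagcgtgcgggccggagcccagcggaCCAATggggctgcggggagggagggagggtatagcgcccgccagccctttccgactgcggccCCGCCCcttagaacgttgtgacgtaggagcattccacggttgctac
Cdk4, chr10:127063285-127063534: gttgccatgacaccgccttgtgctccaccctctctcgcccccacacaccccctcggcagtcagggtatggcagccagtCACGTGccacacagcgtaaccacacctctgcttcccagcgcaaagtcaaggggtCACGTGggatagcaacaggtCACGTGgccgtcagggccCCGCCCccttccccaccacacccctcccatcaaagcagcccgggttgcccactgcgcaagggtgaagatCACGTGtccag
Cdk6, chr5:3343643-3343892: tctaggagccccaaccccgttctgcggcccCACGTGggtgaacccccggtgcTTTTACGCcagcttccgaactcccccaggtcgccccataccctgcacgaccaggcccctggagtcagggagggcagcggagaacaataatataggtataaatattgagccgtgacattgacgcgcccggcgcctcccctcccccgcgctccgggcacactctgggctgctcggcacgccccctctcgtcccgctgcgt
Cdkn1a, upstream start, chr17:29090729-29090978: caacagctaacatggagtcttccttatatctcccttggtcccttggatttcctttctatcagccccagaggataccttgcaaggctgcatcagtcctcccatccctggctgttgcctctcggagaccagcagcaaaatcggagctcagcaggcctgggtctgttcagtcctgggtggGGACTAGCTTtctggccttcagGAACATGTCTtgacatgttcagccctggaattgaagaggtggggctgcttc
Cdkn1b, chr6:134920151-134920400: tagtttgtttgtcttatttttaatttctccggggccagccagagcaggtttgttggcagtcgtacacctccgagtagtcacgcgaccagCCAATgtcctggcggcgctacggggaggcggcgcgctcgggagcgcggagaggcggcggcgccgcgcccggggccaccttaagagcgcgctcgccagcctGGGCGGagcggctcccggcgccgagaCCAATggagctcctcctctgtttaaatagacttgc
The Cdk4 window held 4 E-boxes and 1 Sp1 match, and 6.02% of the 32851 promoter windows of the same length in the table held at least 1 E-box. The Cdk6 window held 1 E2F match, found in 4.28% of all windows, and 1 E-box. The upstream Cdkn1a window held 2 matches to the p53 half-site, which 7.13% of windows held. Sp1 and CCAAT box matches, as in the Ccnd3 and Cdkn1b windows, were in 32.7% and 33.8% of all windows, and AP-1 matches in 6.75%. Such matches describe letters only.

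The libraries held 10521964 to 24052237 counts, so that 3 counts in a region equal 0.114 to 0.332 CPM (counts scaled to TMM library size), a limit that covers counting error only. Across the genome PB3-ERI-R was set apart, with 73.0% of all 57415 tested regions and 58.4% of all 14969 loci called against PB3-Parental. A locus is the sum of a gene's regions, and called means a Benjamini-Hochberg adjusted p under 0.05 in edgeR's quasi-likelihood test. In the paclitaxel line 0.0853% of regions and 0.107% of loci were called against the parental line, and in the vinorelbine line 0.678% and 0.648%. Cell type markers moved with PB3-ERI-R as well: 5 of 7 epithelial marker loci were higher and 5 of 6 mesenchymal ones lower. Over all loci 28.0% were higher and 30.4% lower. Summed epithelial marker CPM were 517 and 387 in PB3-Parental and 1060 and 948 in PB3-ERI-R, and summed mesenchymal marker CPM were 699 and 702 against 412 and 393. Both macrophage markers with a region (of 4 listed) were lower, at 66.1 and 65.9 against 7.87 and 9.32 CPM in sum, as were 1 of 2 endothelial (of 3 listed) and 2 of 3 adipocyte markers. Adgre1, Lyz2 and Cdh5 had no region. Relative to the median change in the 5 Mb window around each locus, 5 epithelial loci were higher, and 3 mesenchymal loci were lower and 1 higher. With the scaling factors of the regions, 2 adipocyte loci were lower and 1 higher. No marker was called in the paclitaxel or vinorelbine line. The part of these differences in the values below was not tested.

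In the eribulin-resistant line, 7 of the 9 loci differed from the parental line: Cdk6 and Cdkn1b were more accessible, and Ccnd2, Ccnd3, Cdk4, Cdkn1a and Rb1 less. That is 2 loci up, against 28.0% of all loci, and 5 down, against 30.4%, with 58.4% called either way. The median log2 fold change of the 9 loci was -0.29, beside -0.00 over all loci, and the median size of change, sign aside, was 0.39 beside 0.48. Leaving out single libraries gave 4 to 8 called loci, with 4 in the absence of either PB3-ERI-R library. Only Ccnd2 kept its call under every alternative that could be fitted for it. In these bulk libraries a change in every cell and a change in the share of cells with an open region cannot be told apart.

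**Figure D1:**
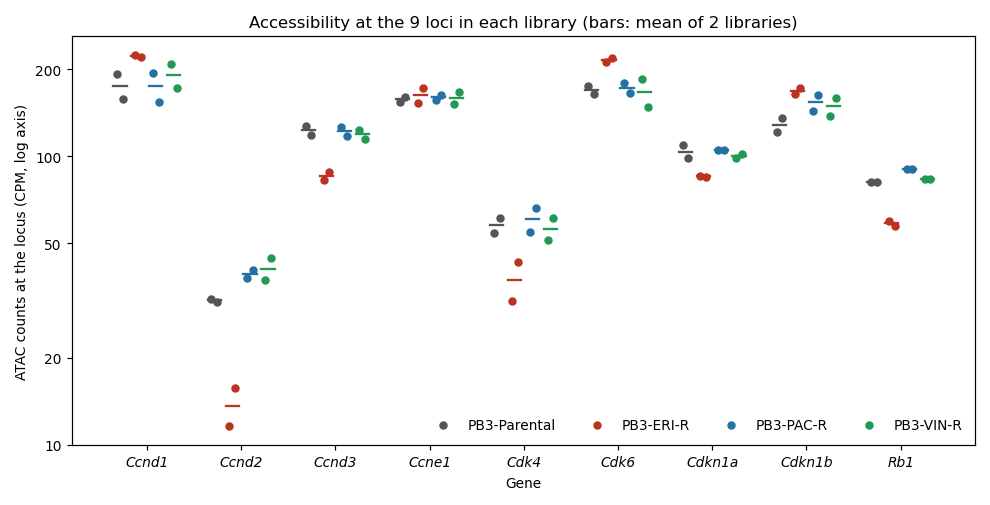
ATAC counts summed over the regions of each of the 9 genes (CPM, log axis) in each of the 8 libraries; points are libraries, bars the mean of the 2 libraries of a line. Ccnd2 stands at 11.6 and 15.7 CPM in PB3-ERI-R and between 31.3 and 44.4 CPM in the other lines, whereas the Ccne1 libraries of all lines overlap.

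Ccnd2, the D-type cyclin best known from lymphoid and neural cells, had the largest difference of the 9 loci. Its locus stood at 32.1 and 31.3 CPM in PB3-Parental, 11.6 and 15.7 in PB3-ERI-R, 37.7 and 40.2 in PB3-PAC-R and 37.3 and 44.4 in PB3-VIN-R. Both eribulin libraries were below every other library. The log2 fold change against PB3-Parental was -1.22 ± 0.17 (SE, adjusted p = 0.000128), a level of 0.429 times the parental one. Of its 3 regions, all inside the gene body, region 3 (chr6:127150918-127151177, 1011 bp from the higher-coordinate end of the body) fell. It held 13.6 and 12.6 CPM in PB3-Parental and 2.51 and 3.54 in PB3-ERI-R (log2 -2.12 ± 0.29, adjusted p = 1.3e-05), and 15.9, 15.8, 15.3 and 23.4 in the paclitaxel and vinorelbine libraries. Regions 1 and 2 were not called, at log2 0.33 ± 0.31 and -0.61 ± 0.27. None of the 3 was a peak in the eribulin line's list.

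Ccnd3, the most widely expressed D-type cyclin, held 128 and 118 CPM in the parental line, 82.5 and 88.4 in the eribulin line, 126 and 118 in the paclitaxel line and 124 and 115 in the vinorelbine line. The eribulin libraries did not overlap the others, and the locus fell by 0.53 ± 0.10 on the log2 scale (adjusted p = 0.000963). On the scaling factors of the regions, which the region values below use, the locus stood at -0.26 (adjusted p = 0.0457). The only region called, 25.9% of the locus in PB3-Parental, lay at the upstream start, whose sequence is printed above. Region 1, at chr17:47504884-47505330, covers 167 of its 250 bases, and held 32.1 and 22.0 CPM in PB3-Parental, 10.6 and 9.63 in PB3-ERI-R, and 24.0 to 28.2 in the other lines (log2 -1.42 ± 0.22, adjusted p = 4.18e-05). It was a peak in 3 of the 4 lists and not in that of PB3-ERI-R. The downstream start, wholly inside region 4 at chr17:47593101-47594020, held 37.6 and 34.9 CPM against 37.1 and 37.0, a log2 fold change of 0.03 with a 95% interval of -0.29 to 0.35. A test of each region against its whole locus, itself included, set region 1 apart (adjusted p = 1.02e-05). It gave 0.222 for region 4. The other pair of regions, inside the gene, had log2 fold changes of 0.02 and -0.03.

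Ccnd1, the D-type cyclin most often altered in breast tumours, held 193 and 158 CPM in PB3-Parental, 225 and 220.3 in PB3-ERI-R, 195 and 154 in PB3-PAC-R and 209.6 and 172 in PB3-VIN-R. Both eribulin values were above all 6 others. As a sum the locus did not pass the test (log2 0.34 ± 0.15, adjusted p = 0.0675), and its call depended on the setting. The adjusted p was 0.0329 with DESeq2 and 0.0378 with the pair of lines fitted alone, and without a single parental library the difference was 0.50 (0.0339) or 0.21 (0.353). Its regions all differed, in opposite directions: 5 rose and 1 fell. Region 2, at the higher-coordinate end of the gene body (chr7:144939555-144939924), went from 19.1 and 15.7 CPM to 34.2 and 32.6 (log2 0.94 ± 0.19, adjusted p = 0.000458). Regions 1, 3, 4 and 6 rose by 0.52 to 1.13 on the log2 scale, but with no scaling factor regions 4 and 6 stood at 0.165 and 0.27 and were not called. Region 5 lies 24.2 kb beyond that end, at chr7:144963985-144964617. It held 16.6 and 14.8 CPM in the parental line, 12.6 to 14.9 in the paclitaxel and vinorelbine lines and 2.23 and 3.10 in the eribulin line, with no overlap (log2 -2.57 ± 0.27, adjusted p = 8.16e-07). It was a peak in all lists but that of PB3-ERI-R, and it made up 10.6% of the locus in the parental line and 1.16% in the eribulin line.

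Ccne1, the cyclin that activates Cdk2, was not called as a locus and held 154.5 and 161 CPM in PB3-Parental, 153 and 173 in PB3-ERI-R, 156 and 163 in PB3-PAC-R and 152 and 167 in PB3-VIN-R. The log2 fold change in PB3-ERI-R was 0.05, with a 95% interval of -0.18 to 0.28. Inside it, regions 1 and 6 rose and region 5 fell. With no scaling factor the rises were not called, at 0.11 (adjusted p = 0.54) and 0.66 (adjusted p = 0.0536). Region 5 (chr7:38128127-38128582, 20.6 kb beyond the start end of the gene) went from 8.55 and 4.93 CPM to 1.39 and 1.77, and held 8.28 to 10.4 in the other resistant lines (log2 -2.10 ± 0.36, adjusted p = 9.41e-05). The region at the annotated start, region 4 at chr7:38107156-38108135, held 35.8 and 43.1 CPM against 50.7 and 54.7, did not overlap with the parental pair and did not pass (log2 0.42 ± 0.21, adjusted p = 0.0836).

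Cdk4, the partner kinase of the D-type cyclins, held 54.3 and 61.2 CPM in PB3-Parental, 31.6 and 43.0 in PB3-ERI-R, 54.6 and 66.2 in PB3-PAC-R and 51.1 and 61.3 in PB3-VIN-R. Both eribulin libraries were lowest, although they differed from each other by more than those of any other line did in ratio. The locus fell by 0.64 ± 0.17 on the log2 scale (adjusted p = 0.00801), and without PB3-ERI-R replicate 1 the adjusted p was 0.0948. Its start, with the 4 E-boxes, lies wholly in region 2 (chr10:127063150-127063940). That region was not called: 37.7 and 39.3 CPM against 30.5 and 40.1, a log2 fold change of -0.13 with a 95% interval of -0.53 to 0.27. Region 1 (chr10:127062571-127062783), 752 bp before the gene body, was called lower, with 8.01 and 13.2 CPM against 2.32 and 3.88 (log2 -1.78 ± 0.37, adjusted p = 0.000596). It held 7.55 to 12.0 CPM in the other lines and made up 21.6% of the locus in PB3-Parental. Locus and region values have their own scaling factors, and on those of the regions the locus stood at -0.37 and was not called (adjusted p = 0.105). With no scaling factor region 2 was called lower as well, at -0.48 (adjusted p = 0.0298).

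Cdk6, the second kinase of the D-type cyclins, combined rises and falls within a single locus. As a sum it held 175 and 164 CPM in PB3-Parental, 212 and 219 in PB3-ERI-R, 179.8 and 166 in PB3-PAC-R and 186 and 148.5 in PB3-VIN-R. The eribulin libraries were highest (log2 0.35 ± 0.12, adjusted p = 0.029). This call was lost without either parental or either eribulin library (adjusted p 0.0527 to 0.134), and the sum over regions within 10 kb of the gene had the opposite sign, -0.17 (adjusted p = 0.324). Of the 12 regions 6 rose, 4 fell and 2 were not called, and 11 of 12 differed from the locus as a whole.

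Regions 2, 7 and 8 of Cdk6 were low in every library outside the eribulin line. Region 7 (chr5:3399799-3400484, inside the gene body) held 0.662 and 0.266 CPM in the parental line, 0.205 to 0.370 in the paclitaxel and vinorelbine lines and 11.8 and 24.3 in the eribulin line. Region 8 (chr5:3476997-3477311), with the smallest adjusted p of the locus, held 0.361 and 0.532 CPM against 9.75 and 9.08 (log2 4.39 ± 0.38, adjusted p = 1.2e-07), and the other resistant lines 0.458 to 0.832. Region 2, before the gene, went from 1.20 and 0.399 to 29.6 and 20.9 CPM, and held 2.65 and 0.753 in the paclitaxel and 1.91 and 0.624 in the vinorelbine line. All 3 were peaks in the eribulin list alone. With loess offsets, which remove a trend along mean abundance, regions 7 and 8 were not called (0.31 and 0.11) and region 2 was (4.05). Region 5, 152 bp inside the lower end of the gene body at chr5:3341156-3341531, rose from 5.42 and 5.12 to 22.6 and 25.7 CPM (log2 2.19 ± 0.24, adjusted p = 1.41e-06). Opposite to these, region 11 (chr5:3502685-3503218) went from 23.7 and 23.5 to 6.87 and 6.87 CPM and lost its peak (log2 -1.78 ± 0.21, adjusted p = 2.77e-06). The reference promoter window at the start printed above, which runs on past that start, lay 1667 bp from the nearest region and under no peak of any line.

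**Figure D2:**
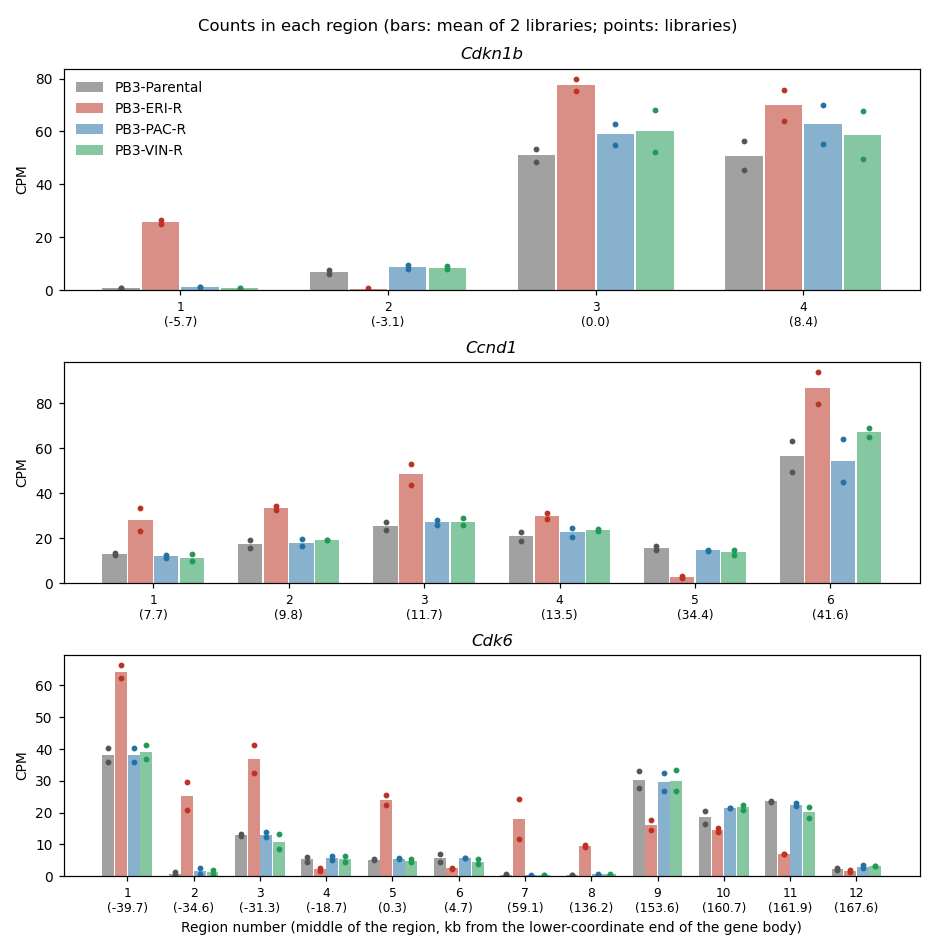
CPM in each region of Cdkn1b, Ccnd1 and Cdk6 (bars: mean of the 2 libraries of a line; points: libraries), in order along the chromosome, with the distance of each region's middle from the lower-coordinate end of the gene body in kb. In Cdkn1b region 1 and Cdk6 regions 2, 7 and 8 the eribulin line alone stands clear of 0, and in Cdkn1b region 2 and Ccnd1 region 5 it alone is near 0.

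Cdkn1a, the p21 inhibitor, held 109 and 98.3 CPM in PB3-Parental, 85.7 and 84.6 in PB3-ERI-R, 105 and 105 in PB3-PAC-R and 99.0 and 101.5 in PB3-VIN-R. The eribulin libraries were lowest and the locus fell by 0.29 ± 0.09 on the log2 scale (adjusted p = 0.0243), a call that DESeq2 did not make (0.0564) and that was lost without PB3-Parental replicate 1 or either PB3-ERI-R library (0.072 to 0.18). On the scaling factors of the regions, which the region values below use, the locus stood at -0.01 and was not called (edgeR adjusted p = 0.918). The second annotated start of Cdkn1a lies in region 2 (chr17:29093451-29093924). That region held 24.6 and 23.8 CPM against 29.4 and 32.9 and was not called (log2 0.36 ± 0.17, adjusted p = 0.075). Regions 3 and 4, behind it in the gene body, fell. Region 3 (chr17:29094374-29095063) went from 21.6 and 17.1 CPM to 11.8 and 9.41 (log2 -0.86 ± 0.22, adjusted p = 0.00263). Region 1, 11.6 kb before the gene, rose by 0.63 ± 0.20 (adjusted p = 0.0118), but stood at 0.27 (adjusted p = 0.226) with no scaling factor, and its call was lost without PB3-Parental replicate 1 (0.0726) or PB3-ERI-R replicate 1 (0.0849). The upstream start, with the p53 half-site letters, lay 2472 bp from the nearest region and had no peak in any line.

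Cdkn1b, the p27 inhibitor, held 122 and 136 CPM in PB3-Parental, 165 and 172 in PB3-ERI-R, 144 and 164 in PB3-PAC-R and 138 and 159.5 in PB3-VIN-R. The eribulin libraries were highest, by a narrow margin over the paclitaxel ones. The locus rose by 0.39 ± 0.11 against PB3-Parental (adjusted p = 0.0136), which without PB3-Parental replicate 1 or PB3-ERI-R replicate 2 was 0.0978 and 0.0608. Region 3, which covers the printed start wholly (chr6:134919964-134920800), went from 48.6 and 53.4 to 79.8 and 75.2 CPM (log2 0.60 ± 0.15, adjusted p = 0.00262), and region 4, beyond the gene, rose by 0.46 ± 0.18 (adjusted p = 0.0357). Both calls were lost with no scaling factor, with loess offsets and relative to 5 Mb windows (0.25 to 0.32 for region 3).

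Before the Cdkn1b start a neighbouring pair of regions moved in opposite directions. Region 1 (chr6:134914541-134914867, 5.53 kb before the gene) held 0.843 and 0.799 CPM in PB3-Parental, 26.5 and 24.9 in PB3-ERI-R, 1.05 and 1.30 in PB3-PAC-R and 0.687 and 0.583 in PB3-VIN-R. Its log2 fold change was 4.95 ± 0.31 (adjusted p = 5.92e-09), the smallest adjusted p of the 45 regions, and 3.19 with loess offsets. Region 2 (chr6:134917190-134917378, 3.02 kb before the gene) held 7.58 and 6.06 CPM in PB3-Parental, 0.929 and 0.111 in PB3-ERI-R, where the second value is under the floor of 3 counts, and 7.78 to 9.51 in the other lines. It fell with a log2 fold change of -3.62 ± 0.48 (adjusted p = 8.03e-06). Region 1 was a peak in the eribulin list alone, and its share of the locus was 0.75% in the parental and 14.8% in the eribulin line.

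Rb1, the pocket protein that the kinases phosphorylate, held 81.7 and 81.5 CPM in PB3-Parental, 59.4 and 57.5 in PB3-ERI-R, 90.4 and 90.5 in PB3-PAC-R and 83.3 and 83.5 in PB3-VIN-R. The lines did not overlap, and the locus fell by 0.48 ± 0.09 in PB3-ERI-R (adjusted p = 0.000972). On the scaling factors of the regions the locus stood at -0.21 and was not called (adjusted p = 0.128). At the higher-coordinate end of the gene body, region 4 (chr14:73325391-73326434) held 33.5 and 35.6 CPM against 39.0 and 36.2 and was not called (log2 0.12, 95% interval -0.24 to 0.49). Deep inside the body, region 1 (chr14:73253361-73254163) went from 29.1 and 29.1 to 11.5 and 10.7 CPM (log2 -1.39 ± 0.18, adjusted p = 7.7e-06). Region 2 went from 4.15 and 3.66 to 0.650 and 0.664 CPM (log2 -2.56 ± 0.37), and region 3 from 1.93 and 1.60 to 10.6 and 11.2 CPM (log2 2.62 ± 0.37). Region 2 lost its peak in the eribulin list, and region 3 was a peak there alone.

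Over all 45 regions, 18 rose and 14 fell in the eribulin line, 71.1% against 73.0% of all regions, with 35.4% of all regions up and 37.6% down. Of the 32 calls 18 held under every alternative scaling, filter, tool and left-out library. Those that did not were Ccnd1 regions 4 and 6, Ccne1 regions 1 and 6, Cdk6 regions 1, 3, 4, 6, 7 and 8, Cdkn1a regions 1 and 4, and Cdkn1b regions 3 and 4. The median size of change was 0.91 on the log2 scale for these regions and 1.37 over all. At 6 of the 9 loci (Ccnd1, Ccne1, Cdk6, Cdkn1a, Cdkn1b and Rb1) at least 1 region rose and another fell. The share of all loci with both was not counted, so this cannot be read as particular to these genes. Of the 45 regions 25 differed from their own locus as a whole, where 63.5% of all 42765 regions tested so were called. Regions within 1 kb of a gene end gave 3 higher and 2 lower of 8, and the others 15 and 12 of 37, a split not made over all regions. In the peak lists 31 of the 45 regions were peaks of PB3-Parental, 29 of PB3-ERI-R, 36 of PB3-PAC-R and 37 of PB3-VIN-R. Peaks in all 4 lists lay at 22 regions, in all but the eribulin list at 8 and in the eribulin list alone at 6. The lists are 1 per line and differ in length (30778 to 45415 peaks), so these counts have no replicate check. The shares over all regions were not counted, so the peak counts cannot be read as particular to these genes.

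**Figure D3:**
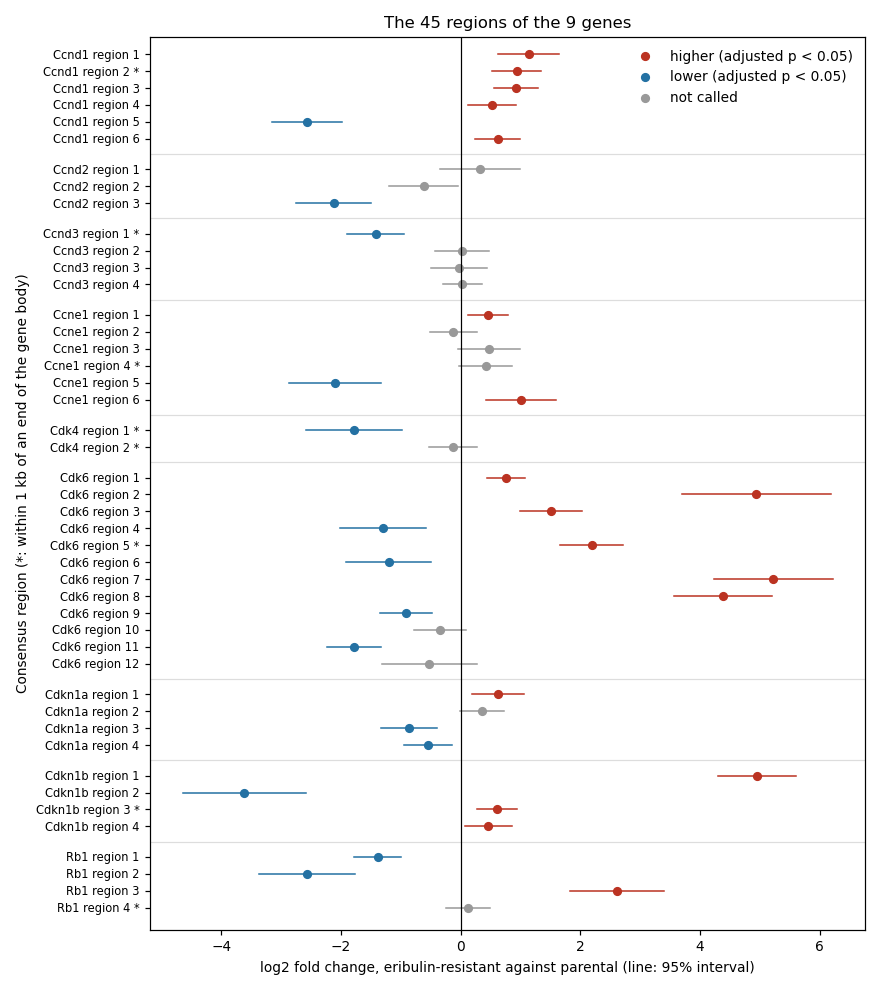
log2 fold change of each of the 45 regions in PB3-ERI-R against PB3-Parental, with 95% intervals from edgeR; red and blue mark adjusted p under 0.05, and stars mark regions within 1 kb of an end of the gene body. The largest rises are at Cdk6 region 7 (5.23), Cdkn1b region 1 (4.95) and Cdk6 region 2 (4.94), and the largest fall is at Cdkn1b region 2 (-3.62).

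A change of scale bears on the locus values of the eribulin line. Scaling the loci by the factors of the regions rather than of the loci moved the median of all loci from -0.00 to 0.26, and the calls over all loci from 4189 up and 4554 down to 6313 up and 3223 down. On that scale Ccnd1 (0.62), Ccne1 (0.32), Cdk6 (0.62) and Cdkn1b (0.66) were called higher and Ccnd2 (-0.95) and Ccnd3 (-0.26) lower, while Cdk4 (-0.37), Cdkn1a (-0.01) and Rb1 (-0.21) were not called. With no scaling factor 11 of the 45 regions were higher and 18 lower, and 14862 and 25149 of all regions, in place of 20338 and 21582.

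The surroundings of some of these loci moved as well. In windows of 5 Mb, the other regions around Cdk6, which lies in the first window of chromosome 5, had a median log2 fold change of 1.26 in PB3-ERI-R over 41 regions, and those around Rb1 one of -0.63 over 149 regions. Around Ccne1 the median was 0.49, around Ccnd2 0.37, around Ccnd1 0.32, around Cdkn1b 0.27, around Cdkn1a -0.29, around Ccnd3 -0.14 and around Cdk4 0.02. These medians rest on the scaling factors of the regions. With the loci on those factors too, an alternative chosen after seeing the data, the median of all loci relative to the other regions of their windows was 0.15, with 35.6% called higher and 22.6% lower. Relative to its window on that single scale Cdk6 turned from higher to lower (-0.64, adjusted p = 0.000106) and Rb1 from lower to higher (0.42, adjusted p = 0.00679). Ccnd2 (-1.32) stayed lower and Cdkn1b (0.38, adjusted p = 0.0275) higher. Ccnd1 (0.30, adjusted p = 0.0536), Ccnd3 (-0.115), Ccne1 (-0.175), Cdk4 (-0.39) and Cdkn1a (0.28) were not called. With the loci left on their own factors and a gene's own regions kept in its window, the median of all loci was -0.13. There Cdk6 (-0.61) and Ccne1 (-0.41, adjusted p = 0.00548) were lower, as were Ccnd2, Ccnd3 and Cdk4, and Ccnd1 (0.02), Cdkn1a, Cdkn1b and Rb1 (0.15) were not called. Whether DNA copy number differs between the lines was not tested. Cdkn1b region 1 (4.67), Cdkn1b region 2 (-3.90) and Ccnd1 region 5 (-2.90) kept their calls relative to their windows, own regions included, as did Cdk6 regions 7 (4.27) and 11 (-2.73).

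**Figure D4:**
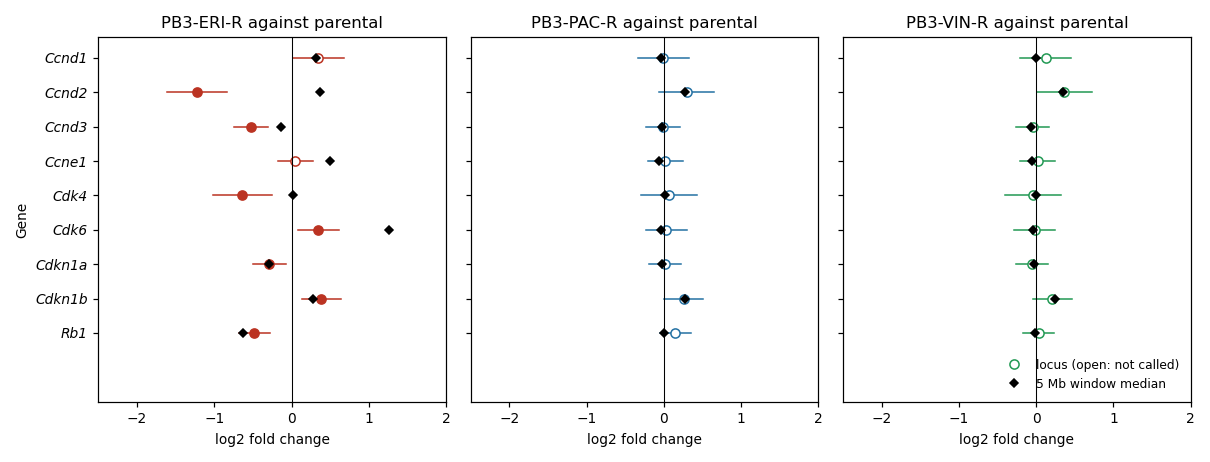
log2 fold change of the 9 loci (circles with 95% intervals; filled where adjusted p is under 0.05) and median log2 fold change of the other regions in the same 5 Mb window (diamonds) in each resistant line against PB3-Parental; loci and regions have their own scaling factors. In PB3-ERI-R the Cdk6 window stands at 1.26 and the locus at 0.35, and in the paclitaxel and vinorelbine lines no circle is filled.

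In the paclitaxel and vinorelbine lines none of the 9 loci and none of the 45 regions passed the test against the parental line, with edgeR or with DESeq2. By the same adjusted p, 0.107% and 0.648% of all loci and 0.0853% and 0.678% of all regions passed with edgeR. An unadjusted p under 0.05 was found with edgeR at 1 locus and 1 region in each line, and at 848 and 1063 of all 14969 loci. The number of all regions with such a p is not given here, so the region counts cannot be read as particular to these genes. Both comparisons share the parental libraries. The log2 fold changes of the loci ran from -0.01 to 0.30 in the paclitaxel line and from -0.05 to 0.36 in the vinorelbine line. The highest in each were at the loci of chromosome 6: Ccnd2 at 0.30 (95% interval -0.06 to 0.66) and 0.36 (0.01 to 0.72), and Cdkn1b at 0.26 (0.00 to 0.51) and 0.21 (-0.04 to 0.46). The medians of the other regions in their windows stood at 0.28 and 0.34 around Ccnd2 and 0.27 and 0.25 around Cdkn1b. For Ccnd1, Ccnd3, Ccne1, Cdk4, Cdk6, Cdkn1a and Rb1 the intervals reached from -0.40 to 0.45 at most, and differences inside these bounds could not be told from 0 with these libraries.

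Set directly against each other, PB3-ERI-R differed from PB3-PAC-R at 6 of 9 loci, 1 higher and 5 lower, where 60.4% of all loci were called, and from PB3-VIN-R at 5, 1 higher and 4 lower, where 58.9% were. Ccnd2 was lower than in PB3-PAC-R by a log2 of -1.52 ± 0.17 (adjusted p = 2.44e-05) and than in PB3-VIN-R by -1.59 ± 0.17 (adjusted p = 1.59e-05). Rb1 stood at -0.63 ± 0.09 and -0.51 ± 0.09, Cdk4 at -0.70 ± 0.17 and -0.60 ± 0.17, and Ccnd3 at -0.51 ± 0.10 and -0.48 ± 0.10. Cdk6 was higher by 0.32 ± 0.12 and 0.37 ± 0.12, and Cdkn1a was lower than in PB3-PAC-R (-0.30 ± 0.10, adjusted p = 0.0184) and not called against PB3-VIN-R (-0.24 ± 0.09, adjusted p = 0.0524). Cdkn1b, which rose against the parental line, was not called against either, at 0.13 ± 0.11 and 0.18 ± 0.11. With the factors of the regions it was called higher than in both (0.39, adjusted p = 0.0223, and 0.44, adjusted p = 0.0123). Relative to 5 Mb windows with locus and window on the factors of the regions, Cdk6 was lower than in both (-0.715 and -0.66). There Ccnd3 and Cdk4 were not called, and Rb1 stood at 0.27 (not called) and 0.36 (called). Cdkn1b was called higher than in both (0.385 and 0.412), and Cdkn1a stood at 0.227 (not called) and 0.293 (called). With a gene's own regions kept in its window and loci on their own factors, Cdkn1b was not called (0.115 and 0.138). Of the regions 32 and 33 of 45 differed, against 73.0% and 73.1% of all regions, and Cdkn1b region 1 had the smallest adjusted p in both. Between the paclitaxel and vinorelbine lines none of the 9 loci or 45 regions was called with edgeR or DESeq2. There, 0 loci and 2 regions had an unadjusted p under 0.05, as did 651 of all 14969 loci, while the number of all such regions is not given here. By adjusted p, 0.0334% of all loci and 0.00871% of all regions were called.

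Levels can be compared between genes only per length of the regions counted. In PB3-Parental, Cdk4 was highest at 57.5 ± 4.83 CPM per kb, followed by Ccnd3 (55.1 ± 3.04), Cdkn1b (51.6 ± 3.99), Ccnd1 (49.7 ± 7.11), Cdkn1a (46.5 ± 3.48), Ccnd2 (43.1 ± 0.71), Ccne1 (39.4 ± 1.07), Rb1 (33.1 ± 0.05) and Cdk6 (28.3 ± 1.24). Each of the first 4 overlapped the next in that order. In PB3-ERI-R Cdkn1b (67.4 ± 2.11) and Ccnd1 (63.1 ± 0.90) led, followed by Ccne1 (40.8 ± 3.53) and, with overlapping libraries, Cdkn1a, Ccnd3 and Cdk4, and Ccnd2 (18.6 ± 3.93) was lowest.

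Among 13404 other loci whose mean log2 CPM reached 3, the one closest to each gene was found by the Euclidean distance between centred log2 CPM profiles over the 8 libraries. These were Tubb2a for Ccnd1 (distance 0.107), Gkn3 for Ccnd2 (0.295), Trim26 for Ccnd3 (0.0642), Aars for Ccne1 (0.0687), LOC114841036 for Cdk4 (0.131), Gm5785 for Cdk6 (0.132), Ptprs for Cdkn1a (0.102), Kif16b for Cdkn1b (0.174) and Grk5 for Rb1 (0.121). The median distance over all candidates ran from 0.707 for Ccne1 to 1.91 for Ccnd2.

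Of 36 further genes of the G1/S step, 34 had a region, Cks1b and Skp2 having none. In the eribulin line 11 of the 34 loci were higher, 8 lower and 15 not called, where 28.0% and 30.4% of all loci were higher and lower, with a median log2 fold change of 0.08, also with loci absent from the parental line set at their bound. With the factors of the regions the split was 16 higher and 6 lower (42.2% and 21.5% of all loci), and relative to 5 Mb windows on that scale 15 and 3 (35.6% and 22.6%). With loci on their own factors and own regions kept in the windows, it was 7 and 7 (24.5% and 33.5% of all loci). E2f8, a repressor among the E2F factors, had 307 and 280.3 CPM in PB3-Parental and 97.1 and 92.8 in PB3-ERI-R (log2 -1.63 ± 0.11, adjusted p = 5.97e-07). Cdkn2a and Cdkn2b, neighbouring genes for inhibitors of Cdk4 and Cdk6, had no count in any library of PB3-Parental, PB3-PAC-R or PB3-VIN-R. In PB3-ERI-R they had 424 and 392 and 865 and 682 counts, at least 360-fold and 683-fold higher on a floor of 3 counts over both parental libraries. Their 4 regions are among 6 in the series with counts in PB3-ERI-R and none in the other lines. That PB3-ERI-R comes from the PB3-Parental culture is taken from the labels and was not tested. No region of the 9 genes was empty in this way: the lowest count in a parental library was 4. None of the 34 loci was called in the paclitaxel or vinorelbine line.

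**Figure D5:**
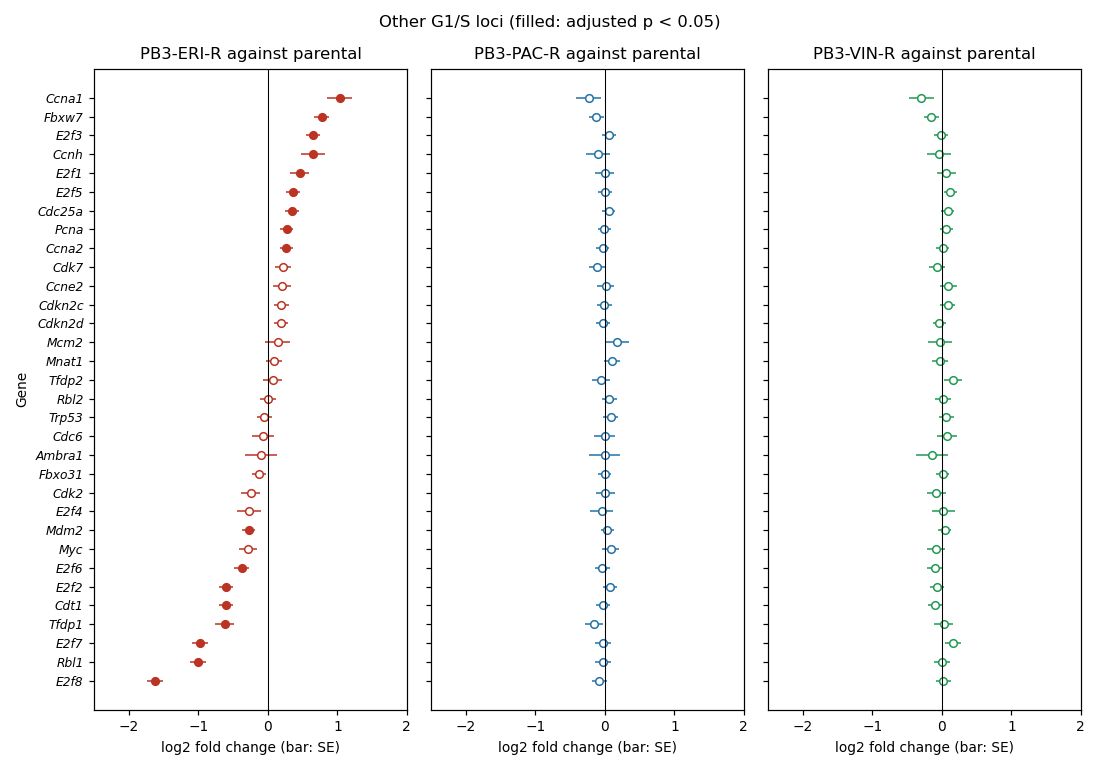
log2 fold change (bars: SE from edgeR) of 32 further G1/S loci in each resistant line against PB3-Parental, ordered by the eribulin line; filled circles have an adjusted p under 0.05. Cdkn2a and Cdkn2b, with no parental counts, are left out. E2f8 is lowest at -1.63 and Ccna1 highest at 1.04 in PB3-ERI-R, and no circle is filled in the other lines.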

How the data were processed

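The 8 ATAC-seq libraries were put into groups by the cell line named in the labels. The submitters' processing notes list MACS2 2.1.1, Bowtie2 2.2.6, cutadapt 1.9.1, bcl2fastq 2.20.0.422, deepTools, featureCounts and Picard, and the builds GRCm38 and mm10; no settings are recorded, nor whether fragments or reads were counted. The deposited table holds raw whole-number counts per consensus region, not normalized. The deposited peak lists, 1 per line, carry a fold over local background for every peak, a ratio used only to rank peaks within a list. The deposited consensus list holds other values, the region starts and ends.

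Regions were assigned to 21900 protein-coding RefSeq genes of GRCm38.p6, whose table gives no strand, and 48280 were placed. Regions and loci were fitted with edgeR 4.0.16 in R 4.3.3: filterByExpr by line, TMM factors, 1 term per line over all 8 libraries, 4 residual degrees of freedom, coefficient of variation 0.161 for regions and 0.112 for loci. Standard errors are the log2 fold change over the root of F. CPM use TMM library sizes of their own level. The fits were tested on simulated counts. Alternatives were RLE factors, no factors, loess offsets, DESeq2 1.42.0, no filter, fewer libraries, a replicate block, 5 Mb window offsets and other distances. Added after seeing the data were the factors of the regions for loci, alone and with windows lacking the locus' own regions. Also added were the region shared with Lpar6 counted for Rb1, and edgeR's diffSpliceDGE for a region against its whole locus.

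The genes and lists were chosen with earlier results of these data known. All 10 genes were named, with the region at the start or gene end and the called region with the smallest adjusted p; the G1/S list gave at most 3 called loci per comparison, ranked by adjusted p, and Ccna1 in a caption was chosen after its value was seen. Other regions were named after their values were seen.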

Additional observations from a re-analysis of the deposited data

Results flagged for a closer look

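PB3-ERI-R differed from the other resistant lines in direct comparisons, which is why these results are listed. Between PB3-ERI-R and PB3-PAC-R the log2 difference was -1.52 for Ccnd2, -0.51 for Ccnd3, -0.70 for Cdk4, 0.32 for Cdk6, -0.30 for Cdkn1a and -0.63 for Rb1, and 32 of the 45 regions differed. Between PB3-ERI-R and PB3-VIN-R it was -1.59 for Ccnd2, -0.48 for Ccnd3, -0.60 for Cdk4, 0.37 for Cdk6 and -0.51 for Rb1, and 33 regions differed. Relative to 5 Mb windows, with locus and window on the same factors, Cdk6 changed sign in both (-0.715 and -0.66), as did Rb1 (0.27, not called, and 0.36). Cdkn1a changed sign against PB3-PAC-R (0.227, not called), Ccnd3 and Cdk4 lost their calls in both comparisons, and Ccnd2 kept its calls. With 2 libraries per line, no library could be tested for standing apart within its line.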

How the results depend on the processing

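Against PB3-Parental, 7 loci of the eribulin line were called, and 4 of 7 with a region when only regions at gene ends were counted; without single libraries the count ran from 4 to 8, and against PB3-VIN-R from 3 to 5, beside 3 with gene-end regions. Window offsets subtracted medians on the factors of the regions, a gene's own regions included, from loci on their own factors: Ccne1 then stood at -0.41 against PB3-Parental, -0.50 against PB3-PAC-R and -0.46 against PB3-VIN-R, Cdk6 at -0.61, -0.63 and -0.63, Rb1 at 0.15, 0.011 and 0.10, and Cdkn1a at 0.007 against PB3-Parental. With windows lacking the own regions and both on the factors of the regions, 4 loci were called against PB3-Parental and 3 against PB3-PAC-R, and in the same order Cdk6 stood at -0.644, -0.715 and -0.661, Cdkn1a at 0.278, 0.227 and 0.293, and Rb1 at 0.421, 0.267 and 0.363. Ccne1 region 1 and Cdk6 region 1 stood relative to windows at -0.001 and -0.21. Within 10 kb Cdk6 stood at -0.17, -0.21 and -0.15. Counting only peaks at or above the median fold of their list left 10, 11, 14 and 12 regions for PB3-Parental, PB3-ERI-R, PB3-PAC-R and PB3-VIN-R. The cause of these shifts was not tested.

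Replicate numbers are shared by the lines, and the differences between replicates 1 and 2 correlated across lines at 0.124 to 0.520, but with 2 numbers the pairing cannot be established. With a replicate block 8 loci were called against PB3-VIN-R in place of 5, 8 in place of 7 against PB3-Parental, and none in the paclitaxel and vinorelbine lines. Against PB3-Parental the block called Ccnd1 (0.353, adjusted p = 0.00242), Ccnd2 region 2 (0.0103), Ccne1 regions 3 (0.00269) and 4 (0.011) and Cdkn1a region 2 (0.0304). Over all features the block gave 159 and 457 called loci in these lines in place of 16 and 97, and 636 and 2717 regions in place of 49 and 389; DESeq2 gave 101 and 219 loci and 154 and 628 regions. In the eribulin line gene-end regions gave 4333 calls among 10526 loci (41.2%) in place of 8743 among 14969 (58.4%). Counts of 0 among the 9 loci and 45 regions held under every alternative run. Depth limits low regions most: those under about 1 CPM rest on few counts in each library.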
